A study of Mus musculus with 13 samples.

Results

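The 8 genes described here are known targets of the transcription factor p53 that feed back on p53 or slow growth and division: Mdm2, Ccng1, Trp53inp1, Phlda3, Btg2, Sesn1, Sesn2 and Zmat3. They were taken by name as annotated targets, through array probe sets that carry 1 of these symbols and no other. Each of the 8 genes had exactly 1 such probe set, and they are 8 of the 19938 genes that the array could name. All 8 passed a filter on dim genes, with a limit for Phlda3 that is given below. Liver RNA was measured on 13 single-colour Affymetrix arrays from 14-day-old mice, each array being 1 sample in the labels, and nothing in the labels says which samples share a litter.

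The DEN-treated groups were N750F (5 arrays), which the labels give only as the RB-N750F mutant; knockout (KO, 2 arrays), with floxed Rb1 and Cre; heterozygous (HET, 2 arrays), with 1 functional and 1 floxed Rb1 allele and Cre; and wild type (WT, 2 arrays), with floxed Rb1 and no Cre. The untreated group was also wild type in the sense of floxed Rb1 without Cre (2 arrays), and the design text describes these mice as given saline. Diethylnitrosamine (DEN), a carcinogen that liver cells convert into a DNA-alkylating agent, had been injected into the peritoneum at 20 mg/kg 24 h before. The albumin promoter drove Cre and works mainly in hepatocytes, so other liver cells may keep the floxed allele intact. A genotype tag of the HET arrays reads LOH, which was not followed here. Untreated livers of the 3 mutant genotypes were not analysed here, so in KO, HET and N750F livers genotype and DEN cannot be told apart in a comparison with untreated liver.

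When DNA is damaged, p53 is stabilised and switches on genes that halt the cell cycle, repair DNA or kill the cell. Some of those genes restrain p53 itself: Mdm2 marks p53 for destruction, and cyclin G1, the product of Ccng1, acts through Mdm2, so that a pulse of p53 limits its own length. Others slow growth by separate routes, through AKT (Phlda3), mTORC1 (the sestrins), mRNA turnover (Btg2) or RNA binding (Zmat3). In liver, nitrosamines such as DEN act mainly on the hepatocytes that metabolise them.

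Factor p53 binds pairs of a decamer known as the p53 half-site, and the promoter letters of the genes are shown because the members that rose and those that did not can be compared there. RefSeq promoter windows (build GRCm38.p6), from 250 bases before to 50 bases after a transcription start, were matched by symbol for 6 of the 8 genes and gave 7 windows, with 2 starts for Sesn1. Zmat3 and Trp53inp1 had no entry. The half-site reads the same on both strands, so 1 scan covers both. A half-site with no mismatch was present in 3 of the 7 windows, those of Ccng1, Mdm2 and the second Sesn1 start, and in 8.36% of all 32851 windows. A pair of half-sites separated by at most 13 bases was present in 0 of the 7 windows with no mismatch (0.0731% of all windows), and in 1 of 7, that of Ccng1, when 1 mismatch was allowed over the 20 letters (1.09% of all windows). The 250 bases before the start of these 3 windows follow, 5′ to 3′, with the matching letters in capitals. The Ccng1 letters come from chr11:40755287-40755536 on the minus strand, those of Mdm2 from chr10:117710759-117711008 on the minus strand, and those of Sesn1 from chr10:41887189-41887438 on the plus strand.
Ccng1: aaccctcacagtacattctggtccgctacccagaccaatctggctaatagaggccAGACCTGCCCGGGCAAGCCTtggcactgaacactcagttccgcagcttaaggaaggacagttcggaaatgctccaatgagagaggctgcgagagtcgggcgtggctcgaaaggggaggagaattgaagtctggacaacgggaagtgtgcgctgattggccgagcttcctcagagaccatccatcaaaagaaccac
Mdm2: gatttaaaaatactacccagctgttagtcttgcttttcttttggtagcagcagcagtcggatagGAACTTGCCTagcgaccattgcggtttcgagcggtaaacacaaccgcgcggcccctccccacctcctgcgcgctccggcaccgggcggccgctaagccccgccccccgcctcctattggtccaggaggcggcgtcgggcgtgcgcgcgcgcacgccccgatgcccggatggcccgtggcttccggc
Sesn1: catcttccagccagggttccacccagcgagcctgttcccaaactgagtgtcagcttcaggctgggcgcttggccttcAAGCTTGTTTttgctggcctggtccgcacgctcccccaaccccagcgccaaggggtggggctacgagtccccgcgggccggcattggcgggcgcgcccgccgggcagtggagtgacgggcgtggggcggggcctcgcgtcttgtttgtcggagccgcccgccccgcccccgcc
In Ccng1 the 20 capitals are the double half-site with 1 mismatch and no spacer, from position -195 to -176 relative to the start, and the strict half-site is its second part, from -185 to -176. The Mdm2 half-site lies from -186 to -177 and the Sesn1 half-site from -173 to -164. The windows of Phlda3, Btg2, Sesn2 and the first Sesn1 start held no strict half-site. A match is only a run of letters, and the windows do not reach introns, where known p53 sites of several targets lie, among them those of Mdm2.

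**Figure D1:**
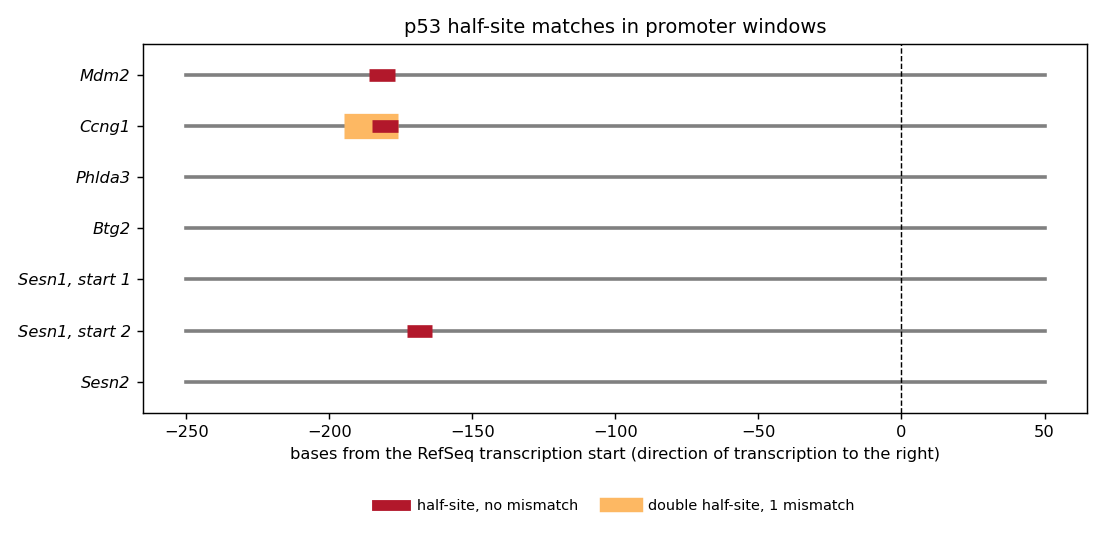
Promoter windows of 6 genes (7 RefSeq starts), drawn by distance in bases from the transcription start at the dashed line. Dark red blocks are half-sites with no mismatch (Mdm2, Ccng1 and the second Sesn1 start), and the orange block is the double half-site with 1 mismatch in Ccng1.

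Levels below are log2 of the quantile-normalized intensity plus 16, so 1 unit is a doubling, and differences are log2 differences ± standard error (SE) from 1 limma model of all 13 arrays with array batch as a term. A gene was called at an adjusted p below 0.05, Benjamini-Hochberg over the 14953 genes tested. With 2 arrays in 4 of the 5 groups, the number of arrays limits the precision. The files hold no detection calls, so whether a dim probe set was above background is not known here. In bulk liver, fewer cells of a type and less RNA per cell cannot be told apart.

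KO array 2 stood apart: the mean level of 14 skeletal muscle genes was 8.19 there, against 5.80 to 6.10 on the other 12 arrays, and Tnnt3, a fast-muscle troponin, was at 11.96 there, against 4.49 to 6.18. Its part in the results was not tested, and the KO differences that moved most without it are given with and without it. Alb, encoding albumin, the main hepatocyte product, was between 12.79 and 13.01 on all 13 arrays. The 4 arrays of a second run, which the labels' raw array names mark, are called batch 2 here, and 2187 genes differed between the batches in the same model. Rb1 was at 7.82 to 8.43 on the N750F arrays, 7.92 and 6.57 on the KO arrays, 7.92 and 7.62 on the HET arrays and 8.04 and 8.01 on the WT DEN arrays, against 7.27 and 7.15 on the untreated arrays. The position of its probes relative to the floxed exon is not known here, so the level does not check the labels.

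Across the 4 DEN-treated genotypes, Mdm2, Ccng1, Trp53inp1 and Phlda3 rose over untreated liver by about 3 to 5-fold, a size that for Phlda3 depends on the constant added before the log, while Btg2, Sesn1, Sesn2 and Zmat3 did not pass the test. These 4 genes restrain p53, work with it or curb AKT. Of the 8 genes, 4 were called higher for the mean of the 4 genotypes minus untreated, and 0 lower, where 1.26% of all tested genes were called higher (188 of 14953). The median difference of the 8 genes was 1.19, against -0.04 over all genes tested. On all 11 DEN arrays the level lay above both untreated arrays for the same 4 genes, as it did for 2.94% of all tested genes.

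Mdm2 encodes the ubiquitin ligase that targets p53 for degradation. Its level was 10.20, 9.69, 10.73, 8.88 and 9.37 on N750F arrays 1 to 5, 10.24 and 10.25 on the KO arrays, 10.42 and 9.38 on the HET arrays and 10.22 and 9.29 on the WT DEN arrays, against 8.77 and 8.62 on the untreated arrays. The groups did not overlap, but N750F array 4 lay only 0.11 above the higher untreated array, and the lower DEN values were those of batch 2. The mean DEN difference was 1.59 ± 0.25 (95% interval 1.06 to 2.12, 3.01-fold, adjusted p = 0.00741, limma), higher on 11 of 11 DEN arrays. Mdm2 was 1.04 log2 units lower in batch 2 (difference -1.04, adjusted p = 0.00668): the DEN arrays of batch 2 ran from 8.88 to 9.38 and those of batch 1 from 9.69 to 10.73. Both untreated arrays were in batch 1, and within batch 1 alone the DEN difference was 1.58 ± 0.26 (adjusted p = 0.0359). The call ended without untreated array 1 (1.67, adjusted p = 0.138) and without untreated array 2 (1.51, adjusted p = 0.0634), with no batch term (1.23, adjusted p = 0.222) and with replicate number as a block in place of batch (1.34, adjusted p = 0.178), and held in the other 18 of 22 alternatives.

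Ccng1 encodes cyclin G1, which recruits a phosphatase to Mdm2. Its level was 12.49, 12.36, 12.57, 12.55 and 12.52 on the N750F arrays, 12.72 and 12.46 on the KO arrays, 12.69 and 12.54 on the HET arrays and 12.55 and 12.43 on the WT DEN arrays, against 10.59 and 10.69 on the untreated arrays. Ccng1 was the tightest of the 8 genes after DEN: the 11 DEN arrays spanned 0.36, and the lowest of them lay 1.67 above the higher untreated array. Averaged over the 4 genotypes, the DEN difference was 1.92 ± 0.18 (95% interval 1.54 to 2.31, 3.80-fold, adjusted p = 0.000301). Ccng1 did not pass the test for batch (-0.03, adjusted p = 0.916).

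Trp53inp1 encodes a nuclear protein that supports p53 activity and also takes part in autophagy. Its level was 11.34, 10.83, 11.45, 10.33 and 10.43 on the N750F arrays, 11.95 and 10.87 on the KO arrays, 11.08 and 10.39 on the HET arrays and 10.90 and 9.81 on the WT DEN arrays, against 9.30 and 8.44 on the untreated arrays. The groups did not overlap, with WT DEN array 4 nearest to the untreated arrays at a gap of 0.51. The mean DEN difference, 2.28 ± 0.30 (95% interval 1.64 to 2.91, 4.84-fold, adjusted p = 0.00286), was the largest estimate among the 8 genes at this added constant; with a constant of 1 that of Phlda3 was larger (2.81, against 2.31). Trp53inp1 was also lower in batch 2 (-0.86, adjusted p = 0.0335). Its DEN arrays ran from 9.81 to 10.43 in batch 2 and from 10.83 to 11.95 in batch 1, and within batch 1 alone the DEN difference was again 2.28 ± 0.33 (adjusted p = 0.0228).

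Phlda3 encodes a pleckstrin-homology protein that keeps AKT from the membrane. Its level was 6.57, 6.45, 7.17, 6.09 and 6.83 on the N750F arrays, 6.57 and 6.81 on the KO arrays, 6.85 and 6.82 on the HET arrays and 7.10 and 6.54 on the WT DEN arrays, against 5.04 and 4.72 on the untreated arrays. The groups did not overlap, and the gap between them was 1.05. The filter on dim genes kept genes whose mean over all arrays reached 5.94. Both untreated values of Phlda3 lay below that level, so it passed through its DEN values. It was also called with no such filter. Its mean DEN difference was 1.96 ± 0.25 (95% interval 1.42 to 2.50, 3.90-fold, adjusted p = 0.00266). The untreated values lie near the floor of 4 that the added 16 sets, so the size depends on that constant: the difference was 2.81 with an added constant of 1 and 1.23 with 50, both called. The call ended with replicate number as a block in place of batch (1.78, adjusted p = 0.0709) and held in the other 21 of 22 alternatives.

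Btg2 encodes an antiproliferative protein that recruits the deadenylase of mRNA decay, and it is also induced early by growth and stress signals. Its level was 8.26, 7.99, 8.42, 8.37 and 8.94 on the N750F arrays, 9.12 and 10.44 on the KO arrays, 8.08 and 7.79 on the HET arrays and 8.23 and 7.08 on the WT DEN arrays, against 8.84 and 7.93 on the untreated arrays. DEN and untreated arrays overlapped, and both KO arrays were above every other array. Its mean DEN difference was 0.09 ± 0.38 (95% interval -0.73 to 0.91, adjusted p = 0.948), and -0.08 without KO array 2.

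The sestrins restrain mTORC1 when amino acids are short or DNA is damaged. Sesn1 stood at 8.96, 8.94, 8.77, 8.48 and 9.19 on the N750F arrays, 8.88 and 9.69 on the KO arrays, 9.15 and 8.29 on the HET arrays and 9.16 and 8.87 on the WT DEN arrays, against 9.10 and 9.48 on the untreated arrays. Only KO array 2 lay above both untreated arrays. The mean DEN difference of Sesn1 was -0.21 ± 0.27 (95% interval -0.79 to 0.36, adjusted p = 0.771), and -0.31 without KO array 2 (adjusted p = 0.548), -0.40 without untreated array 1 and -0.02 without untreated array 2. Sesn2 stood at 6.09, 6.29, 6.58, 6.14 and 5.80 on the N750F arrays, 6.18 and 6.40 on the KO arrays, 5.83 and 5.50 on the HET arrays and 6.11 and 5.95 on the WT DEN arrays, against 5.66 and 6.49 on the untreated arrays. The 2 untreated arrays nearly spanned the DEN arrays, of which only N750F array 3 lay above both. The mean DEN difference of Sesn2 was 0.07 ± 0.24 (95% interval -0.43 to 0.58, adjusted p = 0.928). For Sesn1 the interval leaves out a doubling over untreated liver. The interval of Sesn2 sets no such limit, because the gene is dim (percentile 6.38 of tested genes), where changes come out too small on this scale. The Sesn2 difference ran from -0.34 to 0.49 with single arrays left out.

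Zmat3 encodes a zinc-finger RNA-binding protein that influences splicing and mRNA stability. Its level was 6.73, 6.27, 8.18, 6.53 and 7.60 on the N750F arrays, 7.54 and 7.34 on the KO arrays, 7.14 and 7.80 on the HET arrays and 7.33 and 7.11 on the WT DEN arrays, against 5.86 and 7.09 on the untreated arrays. The 2 untreated arrays differed widely, and 8 of the 11 DEN arrays lay above both. The difference for the 4 DEN genotypes averaged was 0.79 ± 0.44 (95% interval -0.17 to 1.74, adjusted p = 0.411), an interval that reaches past a 3-fold rise. The value was 0.18 without untreated array 1, 1.40 without untreated array 2 and 0.26 with the replicate block, none called.

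**Figure D2:**
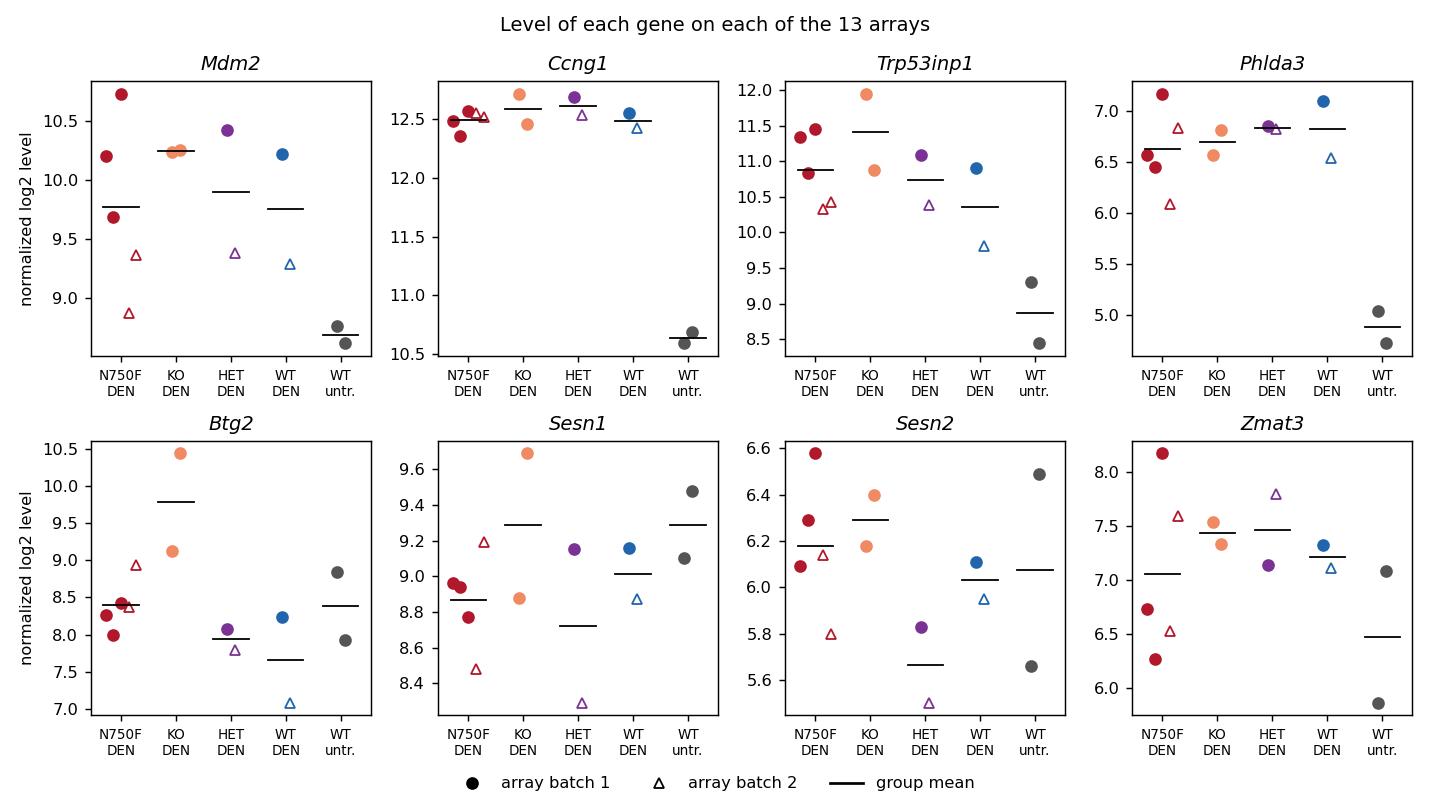
Normalized log2 level of each of the 8 genes on each of the 13 arrays, by group, with filled circles for array batch 1, open triangles for batch 2 and a line at the group mean. In the top row every DEN array lies above both untreated arrays (Mdm2, Ccng1, Trp53inp1, Phlda3), and in the bottom row the groups overlap.

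Among the 5 N750F arrays, array 3 held the highest level of 6 of the 8 genes, all but Btg2 and Sesn1, whose highest N750F value was on array 5. KO array 1 held the highest value of all 13 arrays for Ccng1 and Trp53inp1, and KO array 2 for Btg2 and Sesn1.

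Taken genotype by genotype against the same 2 untreated arrays, the calls fell on the same 4 genes. Because the 4 comparisons share those arrays, their values are given side by side and are not independent. In N750F livers 4 of the 8 genes were called higher (3.87% of all tested genes), in KO livers 3 (0.0803%), in HET livers 4 (0.675%) and in WT livers 4 (0.301%). The KO exception was Mdm2, at 1.55 ± 0.30 (adjusted p = 0.0775).

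Mdm2 differed from untreated liver by 1.50 ± 0.27 in N750F livers (adjusted p = 0.0115), 1.73 ± 0.32 in HET livers (adjusted p = 0.0217) and 1.59 ± 0.32 in WT livers (adjusted p = 0.0428). Trp53inp1 differed by 2.35 ± 0.32 in N750F (adjusted p = 0.00381), 2.54 ± 0.36 in KO (adjusted p = 0.0143), 2.30 ± 0.38 in HET (adjusted p = 0.0116) and 1.91 ± 0.38 in WT livers (adjusted p = 0.042). Phlda3 differed by 1.86 ± 0.27 in N750F (adjusted p = 0.00676), 1.82 ± 0.31 in KO (adjusted p = 0.0486), 2.10 ± 0.33 in HET (adjusted p = 0.00747) and 2.08 ± 0.33 in WT livers (adjusted p = 0.0136). The 4 Ccng1 differences lay between 1.87 and 2.00, with adjusted p from 0.000629 to 0.0051. Without KO array 2 the KO differences were 2.09 for Ccng1 and 3.08 for Trp53inp1, both called, and 1.70 for Phlda3 (adjusted p = 0.0798).

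Several of these calls lay near the threshold: in WT livers that of Mdm2 held in 7 and that of Trp53inp1 in 5 of 22 alternative settings, and in KO livers that of Phlda3 held in 5 of 22. Within batch 1 alone, where WT DEN and HET have 1 array each, 4 of the 8 genes were called in N750F livers (0.963% of all tested genes), 1 in KO livers (Ccng1, 0.0468%), 0 in HET livers (0.00669%) and 0 in WT livers (0.00669%), by limma. In HET and WT livers that is a setting in which 1 gene of all those tested was called higher, and Ccng1 stood at 2.06 (adjusted p = 0.0595) in HET and 1.92 (adjusted p = 0.0718) in WT livers. Leaving out either untreated array leaves 1 array in that group, and the calls over all tested genes then also fell in every genotype. Without untreated array 2, all calls among the 8 genes were lost in KO livers, and all but Ccng1 in HET and WT livers. The N750F loss there was Mdm2 (1.42). Without untreated array 1, all were lost in WT livers (Ccng1 at 1.82). Mdm2 (1.57) and Phlda3 (2.02) were then lost in N750F livers, and Mdm2 (1.80) in HET livers. Ccng1 alone was called in HET livers without HET array 3 or 4, and in WT livers without WT DEN array 3 or 4.

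Btg2, the sestrins and Zmat3 were called in 0 of these 16 comparisons by limma. At an unadjusted p below 0.05 there was 1, Btg2 in KO livers, at 1.39 ± 0.47 (adjusted p = 0.348), and 0.73 ± 0.50 without KO array 2 (adjusted p = 0.585). The differences of Zmat3 were 0.55, 0.96, 0.94 and 0.70 in N750F, KO, HET and WT livers, those of Sesn1 were -0.30, 0.00, -0.42 and -0.13, and those of Sesn2 were 0.23, 0.22, -0.26 and 0.11. Without KO array 2 the KO values were 1.07 for Zmat3, -0.40 for Sesn1 and 0.11 for Sesn2.

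**Figure D3:**
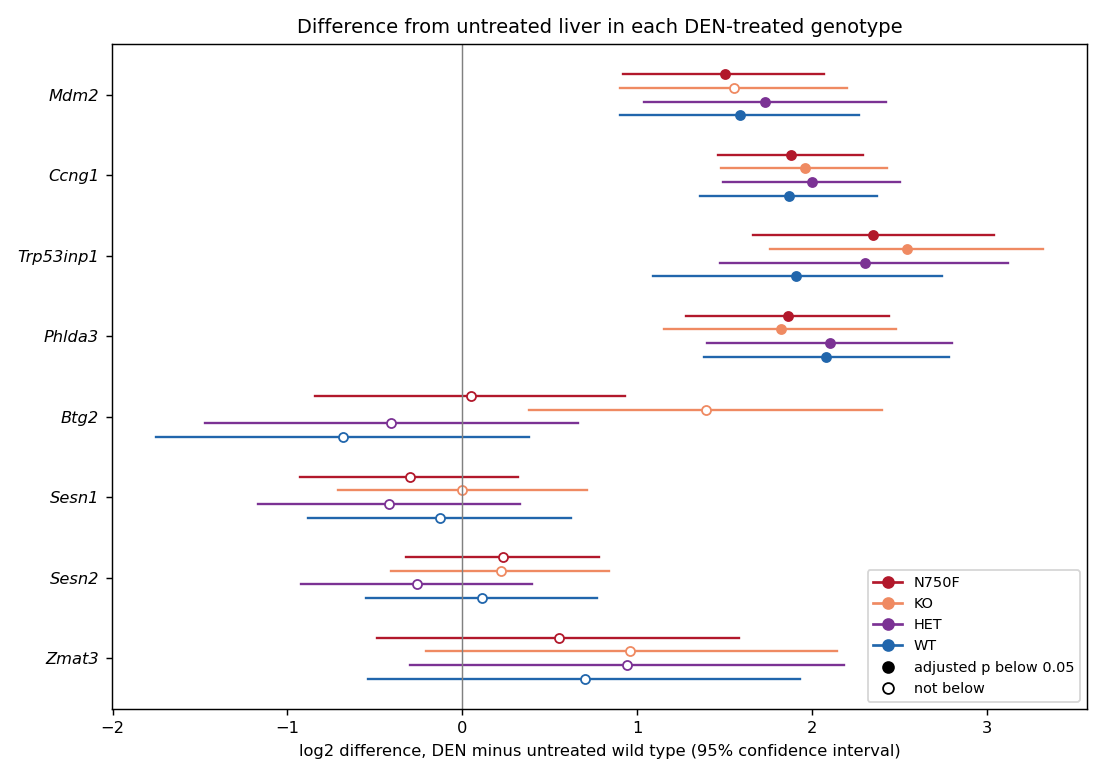
Log2 difference from untreated wild type liver, with its 95% confidence interval, for each of the 8 genes in the 4 DEN-treated genotypes, with filled points where the adjusted p was below 0.05. The intervals of Mdm2, Ccng1, Trp53inp1 and Phlda3 lie above 0 in every genotype, and among the other 4 genes only the KO interval of Btg2 does.

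Other lists put these values in context. Outside the 8 genes, 35 further p53 targets were tested, of which 6 rose for the mean of the DEN genotypes and 0 fell, with a median of 0.57. Polk, a translesion DNA polymerase, rose by 2.16 ± 0.29 (adjusted p = 0.00305), and Plk2, a polo-like kinase, by 2.08 ± 0.38 (adjusted p = 0.0166). Ei24, a membrane protein of the endoplasmic reticulum, rose by 1.23 ± 0.20, Ercc5, a nuclease of nucleotide excision repair, by 1.22 ± 0.28, and Dglucy, which encodes D-glutamate cyclase, by 1.22 ± 0.25 (adjusted p = 0.00872, 0.0409 and 0.0301). The sixth, Fbxw7, a substrate receptor of a ubiquitin ligase, fell outside the rule for naming genes (1.04, adjusted p = 0.0421). Taken by genotype, 9 of the 35 rose in N750F, 1 in KO, 4 in HET and 1 in WT livers, with medians of 0.63, 0.57, 0.62 and 0.30. In the same order, 578, 12, 101 and 45 of all tested genes rose. At an unadjusted p below 0.05 (limma, either direction) the list counts were 16, 12, 14 and 14. The called counts therefore do not rank the genotypes. In WT livers that gene was Ei24 (1.22 ± 0.26, adjusted p = 0.0482), and Polk there stood at 1.64 ± 0.38 (adjusted p = 0.0692). Cdkn1a, the best known arrest target of p53, has no value here because its probe set carries more than 1 symbol.

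Among 18 tested regulators of p53, 1 rose and 0 fell for the mean DEN difference, with a median of 0.34. It was Usp2, a deubiquitinase that acts on Mdm2 (1.48 ± 0.21, adjusted p = 0.00542, limma). Its difference was 0.99 ± 0.23 in N750F, 1.25 ± 0.26 in KO (adjusted p = 0.101, not called), 1.60 ± 0.28 in HET and 2.06 ± 0.28 in WT livers. By genotype, 4 of the 18 rose in N750F, 0 in KO, 1 in HET and 1 in WT livers, where 578, 12, 101 and 45 of all tested genes rose. Of 11 tested paralogues of the 8 genes, 0 passed for the mean DEN difference in either direction by limma (5 at an unadjusted p below 0.05), with a median of -0.32. Mdm4, the partner of Mdm2, stood at 0.77 ± 0.22 (adjusted p = 0.0831), and rose in N750F livers taken alone (0.92 ± 0.24, adjusted p = 0.0376). Phlda1, a relative of Phlda3, stood at -1.25 ± 0.42 (adjusted p = 0.131), and Ccng2, the relative of Ccng1, at -0.87 ± 0.40 (adjusted p = 0.282). Btg1 was at -0.70 ± 0.25 (adjusted p = 0.156) and fell in WT livers taken alone (-2.05 ± 0.32, adjusted p = 0.0136). Sesn3 stood at -0.46 ± 0.20 (adjusted p = 0.246) and Trp53inp2 at 0.35 ± 0.38 (adjusted p = 0.728).

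**Figure D4:**
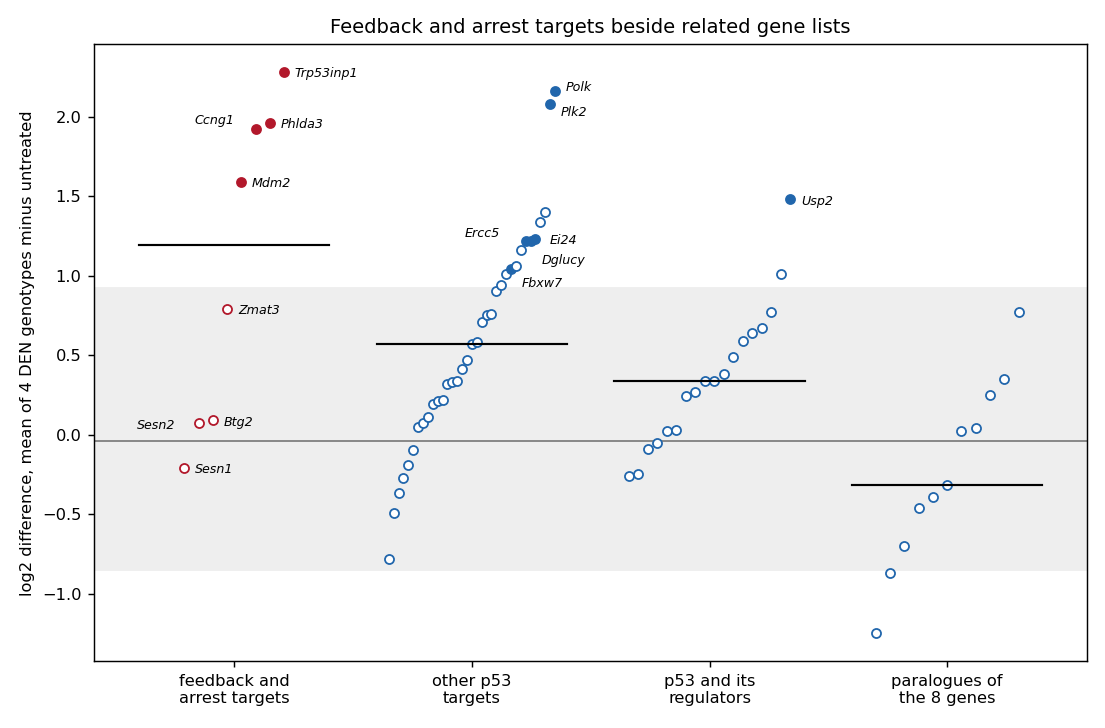
Log2 difference of the mean of the 4 DEN genotypes minus untreated, 1 point per tested gene, for the 8 feedback and arrest targets (red) and 3 related lists (blue), with filled points where the adjusted p was below 0.05 and a black line at each list's median. The grey line is the median of all tested genes (-0.04) and the grey band holds the middle 95% of them (-0.85 to 0.92). Mdm2, Ccng1, Trp53inp1 and Phlda3 lie above the band and the other 4 red points within it.

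Few genes passed for the mean DEN difference in lists tied to the 4 members that did not pass, as was so for all tested genes (328 of 14953 in either direction). Of 18 sestrin and mTORC1 partners, 0 passed by limma (2 at an unadjusted p below 0.05), and Ddit4, an mTORC1 inhibitor, came nearest at 1.34 ± 0.40 (adjusted p = 0.0984). Of 16 targets of ATF4, another inducer of Sesn2, 0 passed (2 unadjusted), with Atf4 itself at -0.92 ± 0.25 (adjusted p = 0.0744), and lower in N750F livers taken alone (-1.09 ± 0.27, adjusted p = 0.0348). Of 13 FOXO and fasting targets 0 passed (6 unadjusted), with Pdk4, a kinase that restrains glucose oxidation, at 0.97 ± 0.25 (adjusted p = 0.0634). That mean covers unlike values: Pdk4 rose in N750F (1.47 ± 0.27, adjusted p = 0.014) and KO livers (1.89 ± 0.31, adjusted p = 0.0404; 1.65 and 0.0798 without KO array 2), and stood at 0.47 ± 0.33 in HET and 0.04 ± 0.33 in WT livers. Of 16 immediate early genes, the class to which Btg2 also belongs, 1 rose, Jun at 1.84 ± 0.38 (adjusted p = 0.031). In N750F livers taken alone, Jun rose (1.79 ± 0.41, adjusted p = 0.0275), while Dusp1 (-1.35 ± 0.32, adjusted p = 0.0306) and Jund (-0.89 ± 0.24, adjusted p = 0.0444) fell.

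Among cell type lists, for the mean DEN difference, 3 of 14 macrophage genes fell (Csf1r at -1.37 ± 0.27, Cd5l at -1.14 ± 0.26 and C1qc at -1.40 ± 0.32), as did 1 of 5 neutrophil genes (S100a8 at -1.96 ± 0.27) and 1 of 14 hepatocyte genes (Fga at -1.04 ± 0.25). Of all 14953 tested genes, 140 were called lower. In N750F livers taken alone, 1 macrophage gene rose (Timd4 at 1.24 ± 0.24, adjusted p = 0.015) and 1 fell (C1qc at -1.60 ± 0.35, adjusted p = 0.0225). Of that list 3 genes fell in WT livers and 1 in HET livers, and 0 passed in KO livers. Over all tested genes, 58 were called lower in WT, 109 in HET and only 1 in KO livers. The KO count therefore does not set KO apart from WT and HET livers. The summed linear signal of the macrophage list ran from 3358 to 5056 on N750F arrays, 3377 to 5102 on KO arrays, 2883 to 2940 on HET arrays and 2332 to 2516 on WT DEN arrays, against 4549 to 6391 on untreated arrays. No gene of the erythroid (2 at an unadjusted p below 0.05), endothelial (4), stellate (1), lymphocyte (0), cholangiocyte (1) or muscle (0) lists passed for the mean DEN difference by limma. Taken by genotype, the erythroid anion exchanger Slc4a1 (-1.66 ± 0.31, adjusted p = 0.0239), the endothelial cadherin Cdh5 (-1.59 ± 0.33, adjusted p = 0.034) and Reln of the stellate list (-1.71 ± 0.35, adjusted p = 0.0342) fell in HET livers, and Oit3 of the endothelial list rose in N750F livers (0.76 ± 0.21, adjusted p = 0.0474). The part of cell composition in the rise of the 4 genes was not tested.

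Levels most alike that of the 8 genes over the 13 arrays, by Pearson's r with their mean standardised level, were those of Abcb1b, encoding a drug efflux pump (r = 0.97), Exoc4 (0.90), Rnf111 (0.87), Rev1 (0.87), Psrc1 (0.86) and Setdb2 (0.86). Most alike to Ccng1 alone were Ces2e, a carboxylesterase (0.95), Suco (0.93), Ei24 (0.93), Vps36 (0.92), Emx2 (0.91) and Ddias (0.91). These r are descriptions over arrays that share the separation of DEN from untreated liver and the 2 batches. Abcb1b was at 6.58 to 8.54 on the DEN arrays, against 5.49 and 5.65 on the untreated arrays, and Ddias at 7.85 to 9.94, against 5.90 and 6.03.

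Whether RB status altered the 8 genes after DEN was asked of the 6 differences between the 4 DEN groups. No gene of the 8 passed in any of them. Called in either direction by limma were 0 of 8 for N750F minus WT (1.42% of all tested genes), 0 for KO minus WT (0.0468%), 0 for HET minus WT (0.00669%), 0 for N750F minus HET (1.64%), 0 for KO minus HET (0.301%) and 0 for N750F minus KO (0%). An F test over the 4 DEN groups also called 0 of the 8 (1.34% of all tested genes). At an unadjusted p below 0.05 there was 1 gene in each of KO minus WT, KO minus HET, N750F minus KO and the F test, each time Btg2, and 0 in the other 3 comparisons.

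How far the genotypes could differ varied by gene. For Ccng1 the 6 differences ran from -0.12 to 0.13 and their 95% intervals from -0.54 to 0.61, so that every interval left out a 2-fold difference in either direction. For Mdm2 the differences ran from -0.23 to 0.14 (intervals within -0.87 to 0.80) and for Phlda3 from -0.28 to 0.04 (within -0.98 to 0.68). For Trp53inp1 they ran from -0.19 to 0.63, the highest being KO minus WT at 0.63 ± 0.38 (95% interval -0.19 to 1.45, adjusted p = 0.684), and an interval of that width holds a doubling. The intervals of Zmat3 ran from -1.45 to 1.51, those of Sesn1 from -1.0 to 1.17 and those of Sesn2 from -0.99 to 1.13.

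Btg2 had the widest differences. KO minus WT was 2.07 ± 0.50 (95% interval 1.01 to 3.14, 4.21-fold, adjusted p = 0.197), KO minus HET 1.80 ± 0.50 (adjusted p = 0.211) and N750F minus KO -1.34 ± 0.41 (adjusted p = 0.27), with an adjusted p of 0.15 in the F test. The KO arrays, at 9.12 and 10.44, lay above all 9 other DEN arrays, at 7.08 to 8.94. Without KO array 2, KO minus WT was 1.41 (adjusted p = 0.487), and without KO array 1 it was 2.73 (adjusted p = 0.0522), where N750F minus KO (-2.00, adjusted p = 0.0374) and the F test (adjusted p = 0.0411) passed. Either way the KO group is then 1 array, taken to vary as the other groups do, and without array 1 it is the array with the muscle transcripts. Without KO array 2, KO minus HET was 1.14 (adjusted p = 0.678), N750F minus KO was -0.68 (adjusted p = 1) and the F test gave an adjusted p of 0.47. On KO array 2 the muscle list was high, as given above, and the immediate early gene Dusp1 was at 10.21, against 9.10 on KO array 1, 7.24 to 8.01 on N750F arrays, 7.81 and 8.20 on HET arrays, 8.15 and 8.88 on WT DEN arrays and 8.82 and 9.11 on untreated arrays. Other immediate early genes were mixed on KO array 2. Egr1 was highest there, at 10.23, but Fos (7.28) was below N750F array 1 (7.37) and Jun (8.53) below N750F array 5 (8.73). The part of the muscle transcripts or of these genes in the Btg2 level was not tested.

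A list of 19 genes of G2 and mitosis is given beside these values because several of the 8 genes slow the cell cycle. Against untreated liver, 2 of the 19 rose and 0 fell in N750F livers, 0 passed in KO livers by limma (2 at an unadjusted p below 0.05), 6 fell in HET livers and 4 fell in WT livers. Of all 14953 tested genes, 578 rose and 350 fell in N750F and 12 rose and 1 fell in KO livers, while 109 fell in HET and 58 in WT livers. Plk1, a mitotic kinase, stood at -0.22 ± 0.34 in N750F, -0.08 ± 0.39 in KO, -2.79 ± 0.41 in HET and -2.14 ± 0.41 in WT livers. The KO count of 0 comes from 2 unlike arrays, with Plk1 at 9.12 and 7.83 on arrays 1 and 2. Their list means were 8.82 and 7.14, 1 above and 1 below those of the untreated arrays (7.68 and 7.51). That count therefore does not show that KO livers lacked a rise in these genes. Without array 2, which leaves 1 KO array, Plk1 in KO livers was 0.56 ± 0.38. Ccng1, in the same order, stood at 1.88 ± 0.20, 1.96 ± 0.22, 2.00 ± 0.23 and 1.87 ± 0.23.

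**Figure D5:**
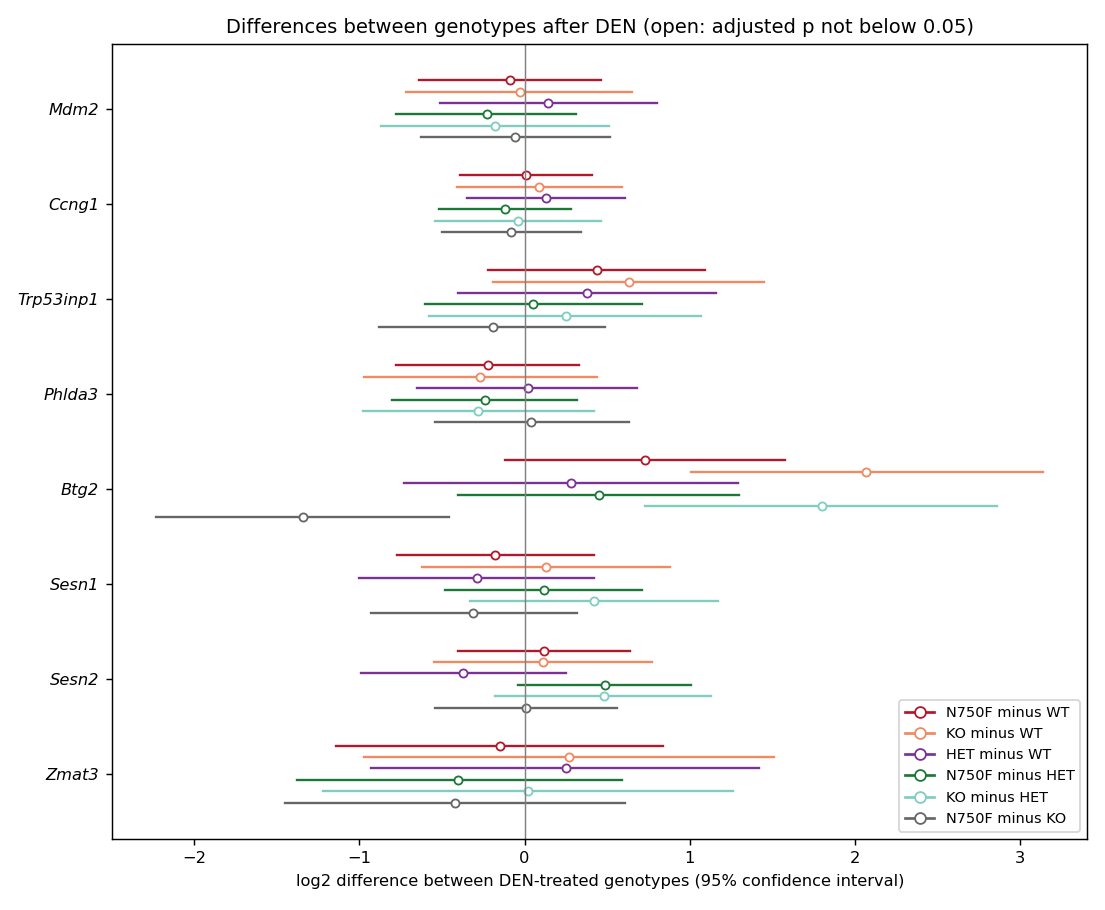
The 6 log2 differences between the 4 DEN-treated genotypes for each of the 8 genes, with 95% confidence intervals; every point is open because no adjusted p was below 0.05. The Ccng1 intervals stay between -0.54 and 0.61, and only the 3 Btg2 differences that involve KO livers have intervals that leave out 0.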

How the data were processed

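Per the labels' protocols, total RNA of frozen liver was amplified before labelling for single-colour Affymetrix arrays. For each of 13 arrays the authors deposited a linear intensity for 35556 probe sets. RMA (no version) and Affymetrix Expression Console 1.1 are named in the submitters' processing notes. The array's probe positions and genome build are not given in the sources used here. Array medians of the deposited intensity ran from 48.2 to 82.99, so the deposited arrays did not share 1 distribution. How the named tools produced these values is not known here.

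Intensities were quantile-normalized (limma 3.58.1, R 4.3.3), 16 was added, and the sum was put on the log2 scale, where changes of dim genes come out too small. Of 23410 annotated probe sets, 21789 had 1 symbol, updated through Entrez ID for 21698 with RefSeq's gene table of GRCm38.p6. The probe set with the highest mean stood for a gene (19938 genes), and those under the 25th percentile of gene means were dropped (14953 tested). A limma model (lmFit, eBayes) held the 5 groups and array batch, with 7 residual degrees of freedom, and Benjamini-Hochberg adjustment was made separately in each of 11 comparisons and in the F test. Nothing in the labels says that the samples are litter-matched, so the p-values reflect only how these arrays varied. No 2 arrays held identical values.

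The 8 genes, the 18 gene lists and the settings were chosen with earlier results of these data known. Named genes were the 8 genes, Rb1, per list the up to 5 genes of smallest p that passed for the mean DEN difference (otherwise the 2 of smallest p), and the 6 genes of highest r with the 8 genes and with Ccng1. Other paralogues, Fbxw7, Tnnt3, Alb, Dusp1, Jund, Fos, Egr1, Timd4 and Oit3 were named after their values were seen. Of 299 list entries, 19 had no usable probe set. Replicate numbers were not taken to pair the samples, since not every pair of same-numbered arrays had deviations from the group means that correlated above 0.1. The 6 pairs of replicates 1 and 2 ran from -0.131 to 0.133 (1 above) and the 6 pairs of replicates 3 and 4 from 0.27 to 0.452 (6 above). In a group of 2 arrays the deviations mirror each other, so these pairs are not all separate checks. KO with untreated gave -0.1 for both numbers, and HET with WT DEN gave 0.452 for both. All arrays numbered 3 are in batch 1 and all numbered 4 in batch 2, so number and batch cannot be told apart there. The 22 alternative settings comprised the added constant, scaling, filter, batch, replicate number, Y-linked level, probe set choice and each array left out. Promoter windows from RefSeq were scanned in Python 3.11.15.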

Additional observations from a re-analysis of the deposited data

Results flagged for a closer look

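Of 43 named genes examined on the 5 N750F arrays, 5 had 1 array whose distance from the nearest other array took up most of the whole range, and chance alone marks about 1 in 20 such groups. None was among the 8 feedback and arrest targets. Polk was at 10.18 on N750F array 3, against 9.16 to 9.41 on the other 4 arrays. Csf1r was at 6.43 on N750F array 4, against 7.33 to 7.53. Cd79b, a B-cell receptor component, was at 5.76 on N750F array 4, against 6.56 to 6.76. Muc1, an epithelial mucin, was at 5.96 on N750F array 5, against 6.50 to 6.63. Ccnb2, a mitotic cyclin, was at 8.97 on N750F array 4, against 8.26 to 8.45.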

How the results depend on the processing

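Over 22 alternatives, Ccng1 (1.83 to 2.15) and Trp53inp1 (1.84 to 2.71) passed in all 22 for the mean DEN difference, Phlda3 in 21 (1.23 to 2.81) and Mdm2 in 18 (1.23 to 1.69). With the replicate block, 2 of the 8 genes were called (Ccng1 and Trp53inp1) for the mean difference, with Mdm2 at 1.34 (adjusted p = 0.178) and Phlda3 at 1.78 (adjusted p = 0.0709), 2 in N750F, 0 in HET and 0 in WT livers, with all-gene counts higher than untreated of 11, 9, 5 and 0 by limma. With no batch term, 2 were called in N750F, 1 in KO, 2 in HET and 2 in WT livers, where 43, 1, 32 and 16 of all tested genes were called higher. In batch 1 alone, 1 was called in KO, 0 in HET and 0 in WT livers. With Y-linked level in the model, 1 was called in KO, 2 in HET and 2 in WT livers (7, 63 and 14 of all tested genes). An added constant of 1, or median scaling, left 2 called in WT livers (22 and 21 of all tested genes). Leaving out 1 array at a time gave 3 to 4 genes for the mean difference, 2 to 4 in N750F, 0 to 4 in KO, 1 to 4 in HET and 0 to 4 in WT livers, and 0 to 1 in the F test. Across single arrays left out, the mean DEN difference ran from -0.37 to 0.54 for Btg2, from -0.34 to 0.49 for Sesn2, from -0.40 to -0.02 for Sesn1 and from 0.18 to 1.40 for Zmat3. Its sign changed for Btg2 with the replicate block (-0.15) and without untreated array 2 (-0.37), WT DEN array 3 (-0.19) or KO array 2 (-0.08), and for Sesn2 with the replicate block (-0.12), with no batch term (-0.03) and without untreated array 1 (-0.34). None of these was called. Allowing 1 mismatch gave 1 promoter window with a double half-site, against 0. Counts over all genes higher than untreated ran from 11 to 490 for the mean difference (188 as reported), 9 to 873 in N750F (578), 0 to 35 in KO (12), 1 to 193 in HET (101) and 0 to 103 in WT livers (45), and from 0 to 539 in the F test (200). The causes were not tested.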
